A study of Mus musculus with 8 samples.

Results

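Smooth muscle cells and pericytes are the mural cells of blood vessels, wrapped around the endothelial tube of arterioles and capillaries. The 9 genes that mark them here were followed in mouse hippocampus, where spatial memory is formed and new neurons are born in adults. The 5 smooth muscle genes were Acta2, Tagln, Myh11, Cnn1 and Des, and the 4 pericyte genes were Pdgfrb, Rgs5, Kcnj8 and Abcc9. They were chosen by name, as every probe that is not a control and whose accession stands for 1 of these symbols. This gave 9 probes, 1 per gene, of 55681 probes and 20151 genes with a symbol on the array.

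The tissue came from male C57BL/6J mice, 11 weeks old when obtained, in 4 groups of 8 mice. AX+ME mice had mild treadmill exercise and a powder diet with astaxanthin, a red carotenoid antioxidant from an alga. AX mice had the astaxanthin diet and stayed sedentary, ME mice had mild exercise with a placebo powder, and SED mice were sedentary with the placebo powder. The added powder was 0.5% of the diet, and astaxanthin was 2% of the astaxanthin powder. Each group has 2 samples, 1 labelled with the dye Cy3 and 1 with Cy5, each alone on 1 of the 8 arrays of a single slide. The labels do not say how RNA of 8 mice was made into 2 samples, nor that the 2 samples come from separate animals. The p-values therefore measure a spread between samples which could be technical only. The title of the series places the design in a question about hippocampal leptin, neurogenesis and memory when the diet and the exercise are combined.

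As background, the smooth muscle genes encode the contractile machine. Acta2 is smooth muscle alpha-actin, Myh11 the smooth muscle myosin heavy chain, Cnn1 (calponin) and Tagln (transgelin) are actin-binding proteins, and Des (desmin) is an intermediate filament protein. Pdgfrb is the receptor through which endothelial PDGF-B recruits and keeps pericytes, and Rgs5 dampens signalling from G protein-coupled receptors. Kcnj8 and Abcc9 are the pore and the regulatory subunit of an ATP-sensitive potassium channel that is abundant in brain pericytes. In whole tissue, fewer cells of a type and less RNA per cell cannot be told apart.

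Each array held 59305 spots that are not controls, of which 63.2% to 76.2% were well above background. All 9 probes were well above background on all 8 arrays and none was saturated, and all 12 listed markers of hippocampal neurons were measured. Signals are given as percent of the 75th percentile of the array's probes, and a level of one gene cannot be set against that of another, since each probe has its own brightness. Both SED arrays carried areas of dim spots at array columns below 70. Of spots in these columns, 13.6% on the SED Cy3 array and 21.7% on the SED Cy5 array were more than 0.5 log2 units below the other arrays of their dye, against 0.613% to 3.23% on the 6 other arrays. From column 70 on the share was 0.458% to 2.88% on all 8 arrays. The SED arrays stood apart there in raised spots, those more than 0.2 log2 units above the other arrays of the dye, with 21.1% and 17.9% on the SED Cy3 and Cy5 arrays against 3.19% to 10.2% on the 6 other arrays. Acta2 was printed 10 times, 2 spots below column 70 and 8 from it on, and Des 10 times with 5 on each side. The other 7 genes had 1 spot each. Myh11 (column 81) and Cnn1 (column 102) lay outside the dim columns, and Tagln (44), Pdgfrb (58), Rgs5 (62), Kcnj8 (61) and Abcc9 (1) lay within them. Every difference against SED for these 5 genes is read from such spots.

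**Figure D1:**
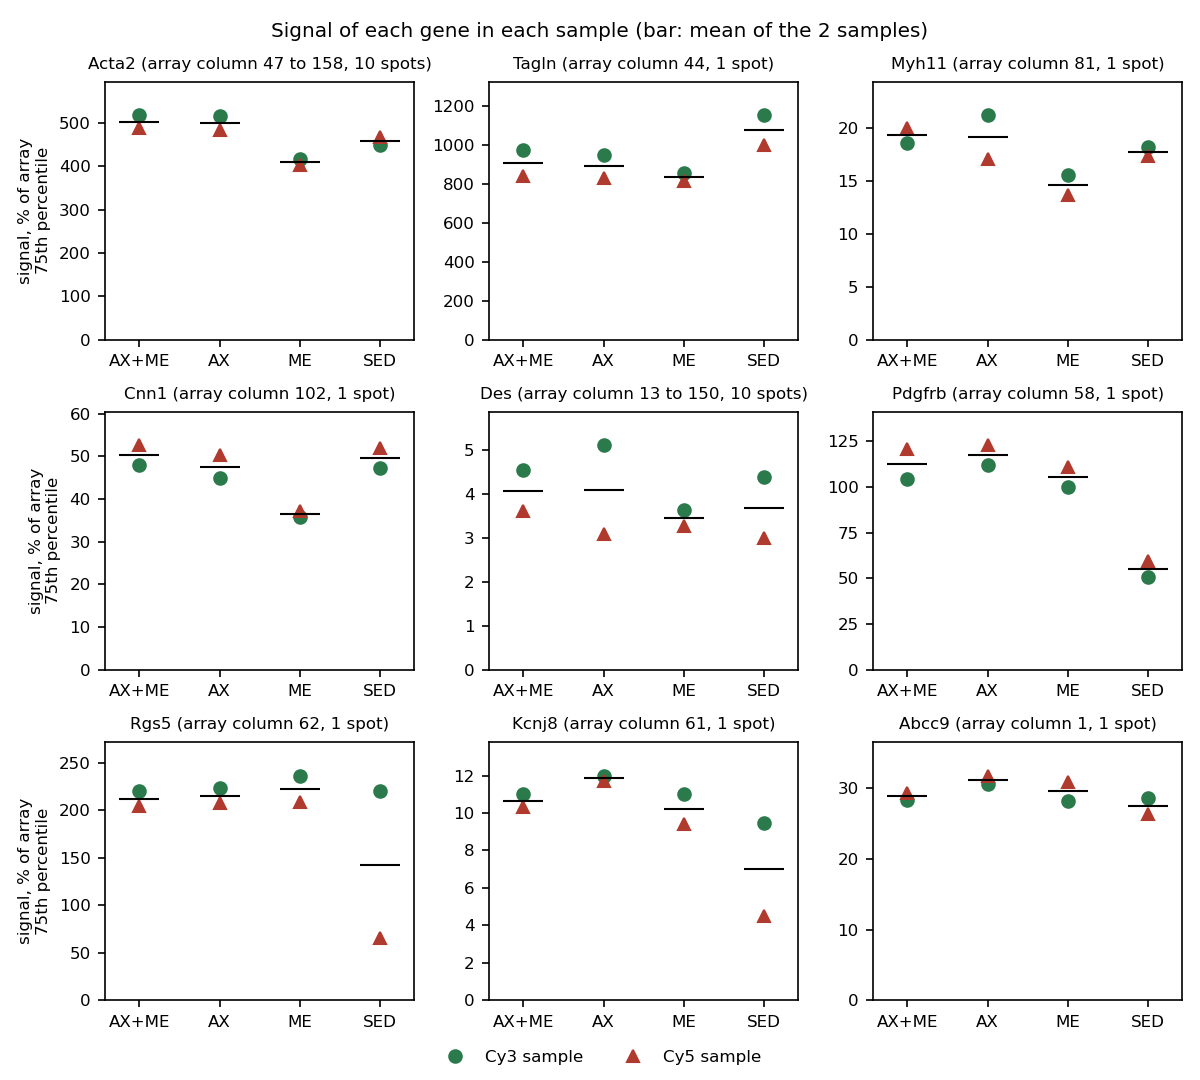
Signal of the 9 genes in each sample, as percent of the 75th percentile of the array's probes (vertical axis, linear and from 0), for AX+ME, AX, ME and SED. Circles are Cy3 samples, triangles Cy5 samples and bars the mean of the 2. Cnn1, Acta2 and Myh11 were lowest in both ME samples, Pdgfrb was lowest in both SED samples, and Rgs5 was low in the SED Cy5 sample alone.

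In the mice that exercised on the placebo diet, 3 of the 5 contractile genes had their lowest 2 values. The share of all probes with both ME samples lowest was not counted. Cnn1 fell in ME against SED, and Acta2 and Myh11 were lowest in ME without passing the test in any comparison. In AX+ME and in AX these 3 genes stood near or above SED. Among the 6 comparisons of 2 groups, the change of Cnn1 in ME was the single contractile difference that passed.

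Cnn1 had 48.0% and 52.6% in AX+ME (Cy3 and Cy5), 44.9% and 50.3% in AX, 35.8% and 37.2% in ME, and 47.2% and 51.9% in SED. The 2 ME samples lay below all 6 others, and the AX+ME, AX and SED ranges overlapped. The log2 difference of ME from SED was -0.44 (SE 0.0567, limma adjusted p = 0.0479), where its signal fell by 26.2%. AX+ME stood 0.46 above ME (adjusted p = 0.417) and AX stood 0.38 above ME (adjusted p = 0.572), with the same sign in both dyes. AX+ME and SED differed by 0.02, with a 95% interval from -0.13 to 0.17. The ME call is near the threshold: the adjusted p was 0.0539 with median scaling, 0.0810 with no filter on dim probes and 0.112 with no dye term. The difference did not turn in any setting. The call was also lost in a limma refit of the probes with all spots from column 70 on (adjusted p = 0.119), where 0 of 21589 probes were called. It was lost with any single sample other than SED replicate 1 left out, with adjusted p between 0.0753 and 0.360. Around the Cnn1 spot, 12.5% and 4.17% of spots were raised on the SED Cy3 and Cy5 arrays, against 2.08% to 10.9% on the 6 other arrays.

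Acta2, measured at 10 spots, had 518% and 487% in AX+ME, 517% and 483% in AX, 418% and 402% in ME, and 449% and 468% in SED. Both ME samples lay below all others, both SED samples came next, and AX+ME and AX did not differ beyond their spread (log2 difference 0.01). AX+ME was 0.29 above ME (SE 0.0649, adjusted p = 0.513) and AX was 0.29 above ME (adjusted p = 0.601). These differences share the ME samples and are not separate evidence. ME lay 0.16 below SED (log2 difference -0.16, adjusted p = 0.250), and AX+ME and AX each lay 0.13 above SED.

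The repeated spots show how tightly a single array measures Acta2. On the 6 arrays of AX+ME, AX and ME the coefficient of variation over the 10 spots was 1.54% to 3.48%, and on the SED arrays it was 6.75% and 8.44%. All 10 spots were brighter in AX+ME than in ME in both dyes: the dimmest AX+ME spot had 506% with Cy3 and 473% with Cy5, against 444% and 415% for the brightest ME spot. The same held for AX against ME at all 10 spots in both dyes. ME was dimmer than SED at 10 spots with Cy3 and 9 with Cy5. The 2 SED spots in the dim columns were not dim: with Cy5 they averaged 530%, against 452% over the 8 spots outside. Over the spots from column 70 on alone, AX+ME minus ME was 0.30 and AX minus ME 0.29 on the log2 scale. The differences from SED moved more: ME minus SED was -0.13 over these spots, against -0.16 over all 10. AX+ME and AX minus SED were 0.17 and 0.16, against 0.13 each. Around these 8 spots, 14.5% to 33.7% of spots were raised on the SED Cy3 array, against 0.543% to 5.07% on the ME Cy3 array. With Cy5 the shares were 5.42% to 25.0% on the SED array and 1.63% to 4.79% on the ME array. The part of raised areas in ME minus SED was not tested. Spots of 1 array share its RNA and count as 1 sample.

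**Figure D2:**
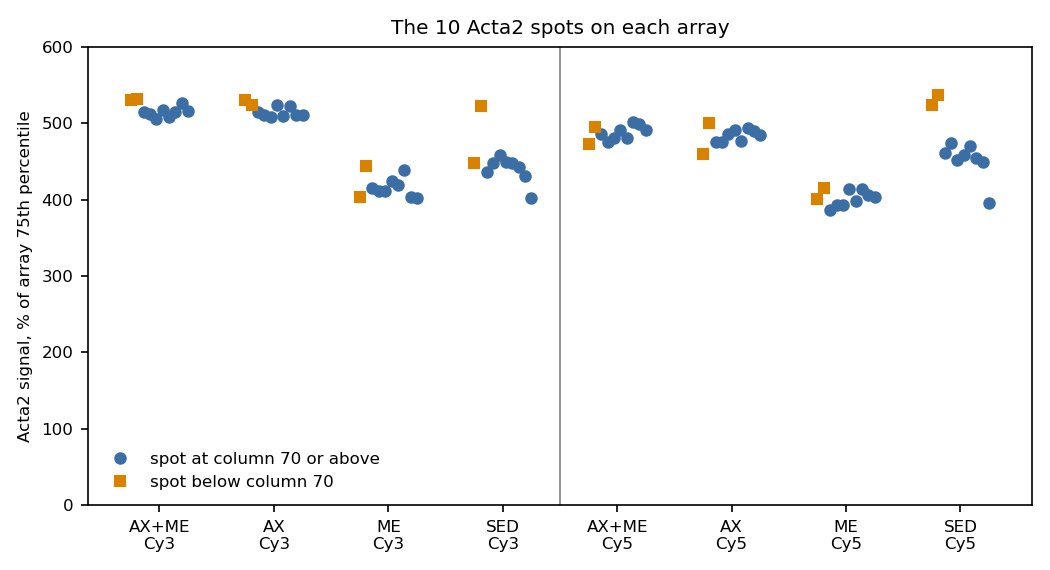
The 10 Acta2 spots on each array, as percent of the 75th percentile of the array's probes (vertical axis, linear and from 0), with Cy3 arrays on the left and Cy5 arrays on the right. Squares are the 2 spots below array column 70 and circles the 8 from column 70 on. Within each dye all AX+ME and AX spots lie above all ME spots, and the SED arrays have the widest scatter.

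Myh11 had 18.6% and 20.0% in AX+ME, 21.2% and 17.0% in AX, 15.5% and 13.7% in ME, and 18.2% and 17.3% in SED. Both ME samples were again below the 6 others, while AX+ME, AX and SED overlapped. The log2 differences were 0.40 for AX+ME minus ME (SE 0.114, adjusted p = 0.553), 0.38 for AX minus ME (adjusted p = 0.673) and -0.28 for ME minus SED (adjusted p = 0.246). Myh11 has 1 spot, outside the dim columns. Around it, 21.1% and 11.1% of spots were raised on the SED Cy3 and Cy5 arrays. On the ME arrays it was 2.63% and 4.21%, and on the AX+ME and AX arrays 5.26% to 19.5%.

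Des was a dim probe, with 4.53% and 3.60% in AX+ME, 5.10% and 3.08% in AX, 3.63% and 3.27% in ME, and 4.37% and 3.00% in SED. All 4 groups overlapped across dyes. AX+ME minus ME was 0.23 (SE 0.153, adjusted p = 0.732), and AX minus ME had opposite signs in the 2 dyes (0.49 with Cy3 and -0.09 with Cy5). On the SED arrays the 5 Des spots below column 70 averaged 3.95% with Cy3 and 2.40% with Cy5, against 4.79% and 3.605% at the 5 spots from column 70 on, and the dimmest spot below it had 0.943% with Cy5. AX+ME minus SED was 0.16 over all 10 spots and -0.08 over the 5 from column 70 on (adjusted p = 0.529 and adjusted p = 0.730), so its sign depends on the spots used.

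Tagln departed from this order, with its highest values in SED. It had 971% and 841% in AX+ME, 947% and 829% in AX, 856% and 815% in ME, and 1151% and 996% in SED. Within each dye SED was highest and ME lowest. Across dyes both SED samples lay above all others, while AX+ME, AX and ME overlapped. The log2 differences from SED were -0.24 for AX+ME (adjusted p = 0.0932), -0.27 for AX (adjusted p = 0.0984) and -0.36 for ME (adjusted p = 0.0768), with SE 0.0631 each. Its single spot lay where 36.7% and 53.8% of the 199 surrounding spots were dim on the SED arrays, and it read 0.32 and 0.27 log2 units above the other arrays of the dye. With a normexp background correction on the median signal, in place of the software's processed signal, the 3 differences were 0.06, 0.01 and -0.04, so for AX+ME and AX the sign turned. This setting replaces both the software's background subtraction and its spatial detrending, and their parts were not separated. Other settings called the differences: AX+ME minus SED was -0.32 with median scaling (adjusted p = 0.0472), and AX and ME minus SED had adjusted p = 0.0491 and adjusted p = 0.0331 with limma's trend and robust prior. AX+ME stood 0.11 above ME (adjusted p = 0.689).

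The promoters of Acta2 and Cnn1, whose values were both lowest in ME, are shown because smooth muscle genes are the textbook targets of serum response factor, which binds a short A/T-rich element, the CArG box. The 250 bases before the RefSeq start (GRCm38.p6) were read at chr19:34255374-34255623 on the minus strand for Acta2 and chr9:22099003-22099252 on the plus strand for Cnn1, 5′ to 3′, with CArG box matches in capitals.
Acta2: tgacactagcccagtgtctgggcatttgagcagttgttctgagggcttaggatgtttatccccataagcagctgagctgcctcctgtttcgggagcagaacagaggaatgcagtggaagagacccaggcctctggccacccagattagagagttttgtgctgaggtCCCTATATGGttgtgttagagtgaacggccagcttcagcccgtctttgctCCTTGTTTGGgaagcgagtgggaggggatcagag
Cnn1: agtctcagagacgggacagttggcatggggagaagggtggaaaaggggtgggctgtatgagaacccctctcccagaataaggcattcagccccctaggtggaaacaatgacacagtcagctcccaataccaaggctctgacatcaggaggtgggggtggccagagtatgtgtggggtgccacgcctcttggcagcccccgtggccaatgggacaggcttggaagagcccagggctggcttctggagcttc
Both strands were searched, with 1 inner base allowed to be other than A or T. The Acta2 window held 2 matches, 84 to 75 and 34 to 25 bases before the start, neither of them a strict match, and the Cnn1 window held none. Windows were also read for Des, Rgs5, Kcnj8 and Abcc9, and these 4 held none. Of 32851 RefSeq promoter windows of this length, 8.59% held such a match and 1.47% a strict one. No match says only that these letters are not in the window. No window was printed for Tagln, Myh11 and Pdgfrb.

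Of the pericyte genes, Pdgfrb was lower in both SED samples than in every other sample, Rgs5 and Kcnj8 were low in the SED Cy5 sample, and Abcc9 varied little. Among AX+ME, AX and ME none of the 4 genes passed the test. All 4 have a single spot in the columns where the SED arrays were partly dim.

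Pdgfrb had 104% and 121% in AX+ME, 112% and 123% in AX, 99.7% and 111% in ME, and 50.8% and 59.3% in SED. AX+ME, AX and ME overlapped, and both SED values lay far below them. The log2 differences from SED were 1.03 for AX+ME (SE 0.0561, adjusted p = 0.0118), 1.09 for AX (adjusted p = 0.0119) and 0.94 for ME (adjusted p = 0.0132). They share the SED samples and are not independent of each other. The values agreed between dyes within 0.10: AX+ME minus SED was 1.04 with Cy3 and 1.02 with Cy5. Averaged over the other factor, exercise (0.44, adjusted p = 0.0497) and astaxanthin (0.59, adjusted p = 0.0482) both passed. The interaction of -1.002 did not (adjusted p = 0.0521). Exercise stood at 0.94 on the placebo diet and -0.06 on the astaxanthin diet. Astaxanthin stood at 1.09 in sedentary and 0.09 in exercised mice, so neither average describes both levels. Some settings called the interaction (limma adjusted p 0.0132 to 0.0475). These were quantile normalization, normexp, detection on all arrays, the brightest probe per gene, and the trend and robust prior. Both averages were close to the threshold and lost their call with median scaling (adjusted p = 0.0565 for exercise and 0.0651 for astaxanthin), no filter on dim probes (0.101 and 0.0994), no dye term (0.143 and 0.0713) and any single AX+ME, AX or ME sample left out (0.206 to 0.332 over both). Around the Pdgfrb spot, 16.2% of 185 spots were dim on the SED Cy3 array and 48.6% on the SED Cy5 array, against at most 2.70% on the 6 other arrays. The part of this area in the Pdgfrb difference was not tested, since the gene has no second spot. Each call against SED was also lost with any single AX+ME, AX or ME sample left out, with adjusted p for AX+ME minus SED between 0.0798 and 0.136, and the size stayed near 1.

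Rgs5 had 220% and 205% in AX+ME, 223% and 207% in AX, 237% and 209% in ME, and 221% and 65.1% in SED. One sample, SED with Cy5, stood apart, and the SED Cy3 sample lay within the range of the other groups. The difference of AX+ME from SED was accordingly -0.00 with Cy3 and 1.65 with Cy5, 0.82 in the fit (adjusted p = 0.309). Without SED replicate 1 it was 1.64 (adjusted p = 0.0128), and without SED replicate 2 it was 0.01 (adjusted p = 0.930). Of 189 spots around it, 11.1% were dim on the SED Cy3 array and 38.1% on the SED Cy5 array. The same sample widened the error of comparisons that do not use it: AX+ME minus ME was -0.07 with SE 0.474 in the fit of all samples, and SE 0.0480 with both SED samples left out.

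Kcnj8 had 11.0% and 10.3% in AX+ME, 12.0% and 11.7% in AX, 11.0% and 9.44% in ME, and 9.48% and 4.50% in SED. The SED Cy5 value lay below all others and the SED Cy3 value next to the lower ME value. The log2 differences from SED were 0.71 for AX+ME (adjusted p = 0.185), 0.86 for AX (adjusted p = 0.167) and 0.64 for ME (adjusted p = 0.280). Without SED replicate 1 they were 1.19 for AX+ME (adjusted p = 0.0143), 1.34 for AX (adjusted p = 0.0136) and 1.12 for ME (adjusted p = 0.0147). Without SED replicate 2 they were 0.23 (adjusted p = 0.178), 0.38 (adjusted p = 0.111) and 0.16 (adjusted p = 0.344), so 1 SED sample decides their size. The spot lies close to that of Rgs5 and Pdgfrb, and 18.3% and 47.8% of the 180 spots around it were dim on the SED Cy3 and Cy5 arrays.

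Abcc9, whose protein joins that of Kcnj8 in the channel, had 28.4% and 29.4% in AX+ME, 30.6% and 31.8% in AX, 28.2% and 31.0% in ME, and 28.7% and 26.3% in SED. Both AX samples lay above both SED samples, and AX+ME and ME overlapped with SED. AX minus SED was 0.18 (adjusted p = 0.249, 95% interval -0.03 to 0.40), AX+ME minus SED 0.07 (adjusted p = 0.584) and ME minus SED 0.11 (adjusted p = 0.496). With the normexp correction all 3 turned negative, at -0.06 for AX, -0.21 for AX+ME and -0.21 for ME, and AX+ME minus SED also did with median scaling (-0.01) and without SED replicate 2 (-0.03). Its spot, at the array's edge, had 2.02% and 21.2% dim spots among 99 around it on the SED Cy3 and Cy5 arrays.

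**Figure D3:**
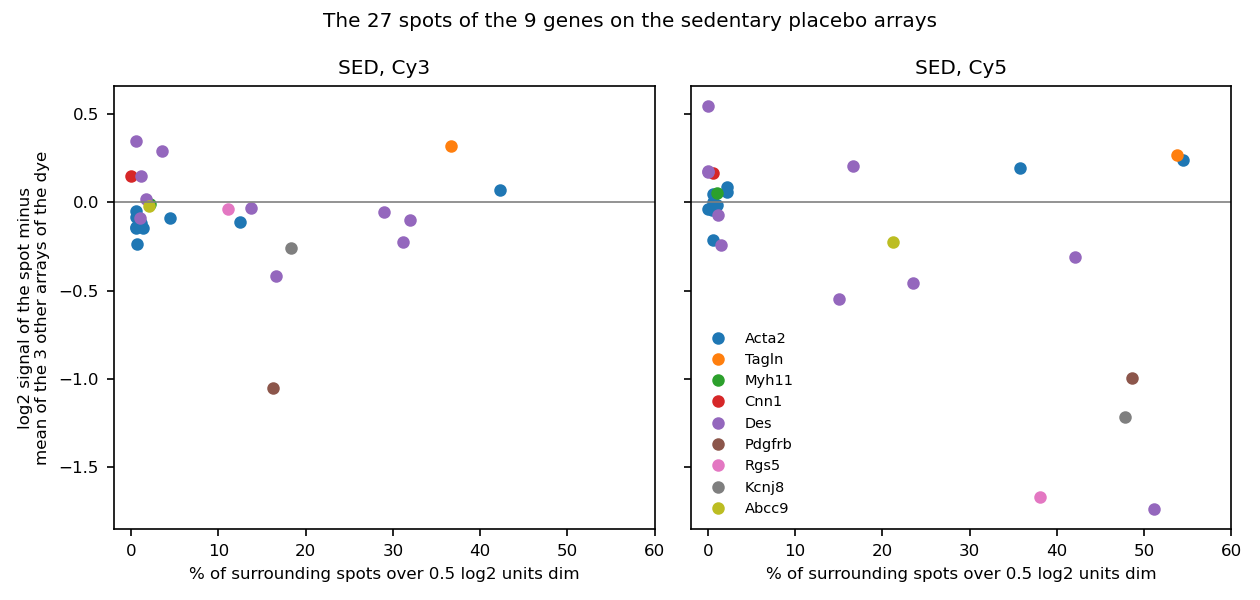
Each of the 27 spots of the 9 genes on the SED Cy3 array (left) and the SED Cy5 array (right), placed by the share of surrounding spots that were more than 0.5 log2 units dim (horizontal axis, percent) and by its own log2 deviation from the 3 other arrays of the dye (vertical axis). The spots of Pdgfrb, Rgs5 and Kcnj8 on the SED Cy5 array lie at 38.1% to 48.6% and between -0.99 and -1.67, 1 Des spot lies at 51.1% and -1.74, and Tagln and 2 Acta2 spots lie above 0 at 35.8% to 54.4%.

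Over these 27 spots the share of dim neighbours was 2.02% to 54.4% on the SED arrays for those below column 70, and at most 4.40% for those from column 70 on. On the 6 other arrays it was at most 8.81%. The dim surroundings did not go with a dim spot in every case: Tagln and the 2 Acta2 spots there were above the other arrays of the dye on the SED Cy5 array, and Pdgfrb, Rgs5, Kcnj8 and 1 of the 10 Des spots deviated from them by -0.99, -1.67, -1.22 and -1.74. The other 4 Des spots below column 70 stood there at -0.55, -0.45, -0.31 and 0.20, with 15.0%, 23.5%, 42.1% and 16.6% dim neighbours. On the SED Cy3 array Pdgfrb deviated by -1.05 with 16.2% dim neighbours. The part of the dim areas in these values was not tested.

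Counted over the 9 genes, 1 of 9 (Pdgfrb) was called for AX+ME against SED, where 4.62% of all 37415 probes tested were called. It was 1 of 9 (Pdgfrb) for AX against SED against 2.29% of all probes, and 2 of 9 (Pdgfrb higher, Cnn1 lower) for ME against SED against 2.02%. Calls against SED were rarer outside the partly dim columns. Of the 21589 probes with all spots from column 70 on, the same fit called 2.19%, 0.519% and 0.398% for AX+ME, AX and ME against SED. Cnn1 is among these probes and Pdgfrb is not. The exercise and astaxanthin averages each called 1 of 9 (Pdgfrb), against 0.404% and 0.323% of all probes. The interaction called 0 of 9 and 0.198% of all probes, with 3 genes at an unadjusted p under 0.05, against 4980 of all probes. The 3 comparisons among AX+ME, AX and ME called 0 of 9 and 0 of all probes by limma. There 3, 0 and 4 of the 9 genes (AX+ME minus ME, AX+ME minus AX and AX minus ME) had an unadjusted p under 0.05, against 3060, 2201 and 2586 of all probes.

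By direction alone, 7 of 9 genes were higher in AX+ME than in ME in both dyes and 1 (Rgs5) was lower in both, while 31.7% of all probes were higher and 30.7% lower in both. For AX against ME it was also 7 higher and 1 lower, against 29.1% and 36.1% of all probes. For ME against SED, 3 were higher and 4 lower in both dyes, against 24.3% and 40.7% of all probes. The median log2 difference of the 5 contractile genes was 0.29 for AX+ME minus ME, 0.29 for AX minus ME and -0.28 for ME minus SED, beside -0.00, -0.01 and -0.04 over all probes. That of the 4 pericyte genes was 0.02, 0.12 and 0.77. The 0.77 lies between Kcnj8 (0.64) and Rgs5 (0.89), whose ME minus SED was 0.21 and 0.10 with Cy3 but 1.07 and 1.68 with Cy5. All 4 pericyte genes have their spot in the partly dim columns. AX+ME and AX hardly differed, with a median of 0.03 for the contractile genes and -0.09 for the pericyte genes. These comparisons share samples, and the counts are a description of 9 chosen genes.

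**Figure D4:**
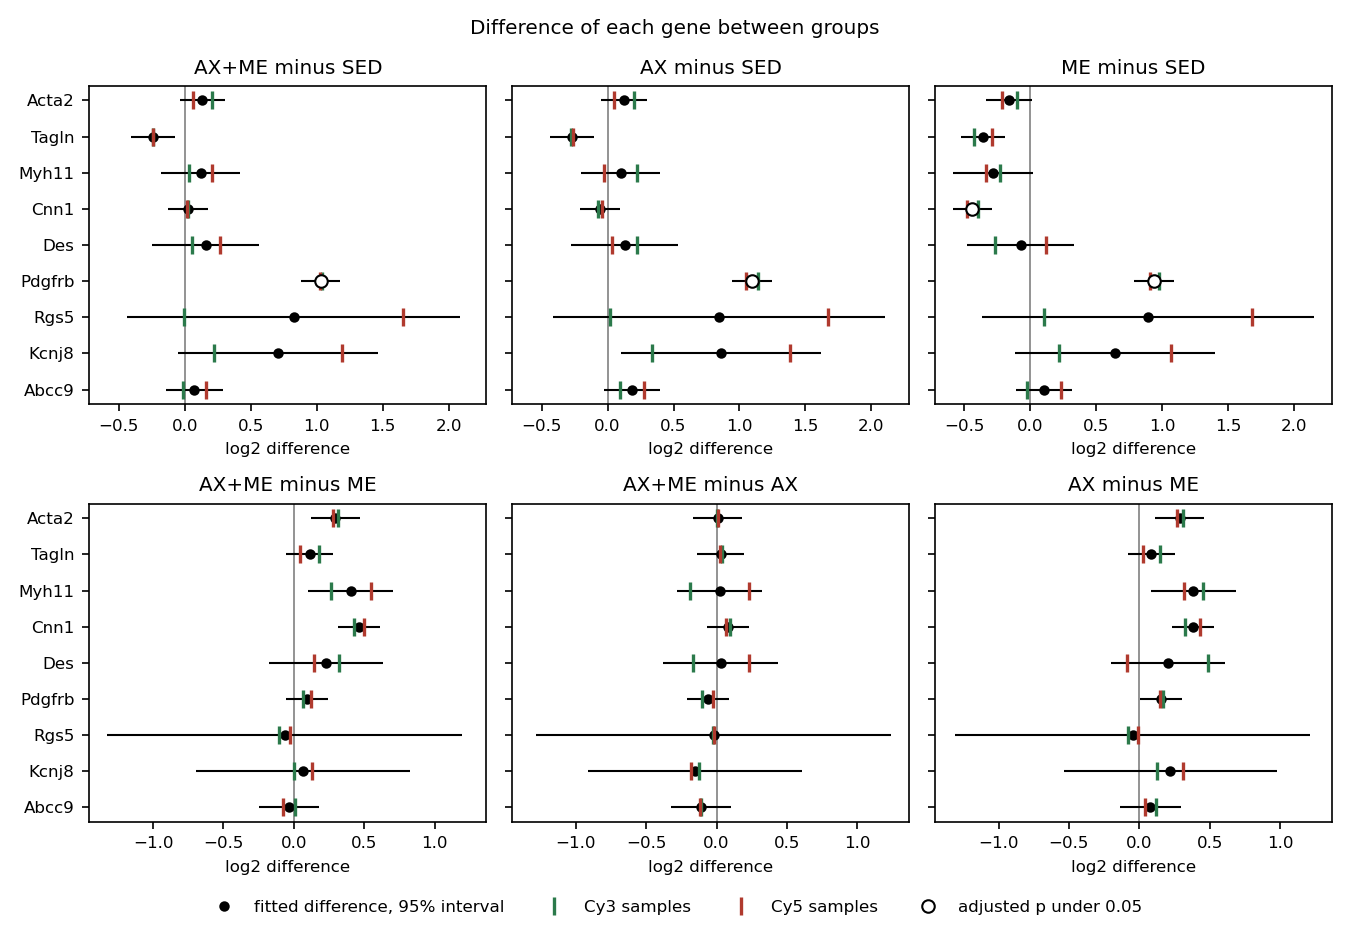
Log2 difference of each gene in the 6 comparisons of 2 groups, with the fitted value (dot), its 95% interval (line) and the value within each dye (green and red ticks). Open dots have an adjusted p under 0.05: Pdgfrb in the 3 comparisons with SED and Cnn1 in ME minus SED. The wide intervals of Rgs5 and Kcnj8 in every panel come with the single low SED Cy5 value of each.

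Acta2, Myh11 and Cnn1 varied closely together over the 8 samples, and Tagln and Des less so. After centring on the dye, the 10 pairs of contractile genes had Pearson correlations between 0.10 and 0.88 with a median of 0.60, and the 3 pairs among Acta2, Myh11 and Cnn1 had 0.84 to 0.88. Tagln correlated at 0.17 with Acta2, 0.29 with Myh11, 0.60 with Cnn1 and 0.10 with Des. Des stood at 0.61 with Acta2, 0.69 with Myh11 and 0.42 with Cnn1. Without the SED samples the 10 pairs had 0.56 to 0.97, median 0.80, over 6 samples. Tagln then stood at 0.67 to 0.83 with the other contractile genes. The 6 pericyte pairs had 0.66 to 0.95, median 0.83, over 8 samples, and -0.20 to 0.74, median 0.43, without SED. The 20 pairs of a contractile with a pericyte gene had -0.89 to 0.39, median -0.07, over all samples, and -0.26 to 0.89, median 0.23, without SED, where Acta2 stood at 0.88 with Pdgfrb and -0.26 with Rgs5. The points share groups, the array's scaling and, for SED, the dim areas, so these values describe the libraries.

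By the same measure among 16077 genes, the closest to Acta2 were Ovch2 (0.98), Igfbp5 (0.97), Gh (0.97), Ppp2r5e (0.96) and Tcirg1 (0.95), and without SED these 5 stood at 0.97 to 0.99. Igfbp5 is a secreted binding protein of insulin-like growth factors and Gh encodes growth hormone. The closest to Pdgfrb were Atrx (0.998), Smg1 (0.99), Smim14 (0.99), Cdc42bpa (0.99) and Nrap (0.99). Of these, 4 have their spot below column 70, at columns 53, 59, 22 and 17, and Nrap at column 94. Without SED the 5 stood at 0.52 to 0.94.

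Of 23 other listed genes of smooth muscle, 22 were measured. For AX+ME minus ME 13 were higher and 9 lower, median 0.07, and for ME minus SED 7 were higher and 15 lower, median -0.14. Of all probes tested, 49.6% were higher for AX+ME minus ME and 41.6% for ME minus SED. These shares also stand beside the lists that follow. At the top for AX+ME minus ME were Actg2, the enteric smooth muscle gamma-actin (0.63, adjusted p = 0.440), and Pln, phospholamban, the inhibitor of the calcium pump of the sarcoplasmic reticulum (0.43, adjusted p = 0.597). At the bottom were Myocd, myocardin, a coactivator of serum response factor, whose dyes disagreed (0.71 with Cy3 and -1.92 with Cy5), and Ppp1r12b (-0.31, adjusted p = 0.521). For ME minus SED the extremes were Synpo2 (0.98, adjusted p = 0.101) and Hspb1 (0.74, adjusted p = 0.381), and Srf, serum response factor itself (-0.65, adjusted p = 0.114), and Actg2 (-0.50, adjusted p = 0.102). Synpo2, Hspb1 and Srf have spots below column 70. A single list member was called in any comparison: Pln rose in AX against SED by 1.32 (adjusted p = 0.0376), at column 24.

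Of 18 other pericyte genes all were measured, and 15 have their spots from column 70 on. None was called in any comparison. For AX+ME minus ME 13 were higher and 5 lower, median 0.06, from Anpep, the aminopeptidase CD13 on pericytes (0.31, adjusted p = 0.532), and Gja4, a gap junction protein (0.16, adjusted p = 0.677), to Tbx18 (-0.09, adjusted p = 0.932) and P2ry14 (-0.10, adjusted p = 0.740). For ME minus SED 5 were higher and 13 lower, median -0.06, from Vtn (0.10, adjusted p = 0.330) and Cox4i2 (0.08, adjusted p = 0.458) to Anpep (-0.47, adjusted p = 0.0731). The median over the 15 genes outside the dim columns was also -0.06. Pdgfrb had stood 0.94 above SED in that comparison, and Rgs5 and Kcnj8 0.89 and 0.64.

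Of the PDGF family, the 4 ligand genes and Pdgfra, the alpha receptor, none was called. Pdgfb, the ligand of Pdgfrb from endothelial cells, was 0.04 higher in AX+ME than in ME (adjusted p = 0.956) and differed from SED by -0.10 in ME (adjusted p = 0.584). Pdgfra was 0.28 above SED in ME (adjusted p = 0.232), at column 1. For AX+ME minus ME the other 3 ligands were Pdgfa (-0.13, adjusted p = 0.882), Pdgfd (-0.11, adjusted p = 0.872) and Pdgfc (-0.03, adjusted p = 0.990). All 5 genes have a spot below column 70.

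Markers of meningeal fibroblasts were lowest in ME as well. Of 14 genes of meningeal fibroblasts, the collagen-making cells of the brain's coverings, all 14 were lower in ME than in SED, median -0.43, and 12 were higher in AX+ME than in ME, median 0.43. Col3a1 (-0.84, adjusted p = 0.0206) and Col1a2 (-0.47, adjusted p = 0.0445) fell in ME against SED. The mean log2 level of this list was -0.11 and -0.07 in AX+ME, -0.23 and -0.18 in AX, -0.45 and -0.45 in ME, and -0.13 and 0.01 in SED, so ME was lowest, as for Acta2 and Cnn1. Large surface vessels with smooth muscle lie in the same coverings, and the part of such tissue in the contractile values was not tested.

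Of 16 endothelial genes, 13 were lower in ME than in SED, median -0.16, and 11 were higher in AX+ME than in ME, median 0.03. Of 14 genes of the choroid plexus, the vascular tissue that makes cerebrospinal fluid, all 14 were lower in ME than in SED, median -0.41, and 13 lay lower in AX+ME than ME, median -0.08. Otx2, Kcne2, Aqp1 and F5 were called there in ME minus SED (-0.50, -0.51, -0.76 and -0.64). Of 13 genes of skeletal and heart muscle 9 were measured, and Ckm, Tnnt3, Mylpf and Actc1 were not well above background on both arrays of any group. The 9 had medians of 0.03 for AX+ME minus ME and -0.03 for ME minus SED. Of 4 measured red cell genes 3 lay lower in AX+ME than ME, median -0.12, and 3 lay lower in ME than SED, median -0.13.

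**Figure D5:**
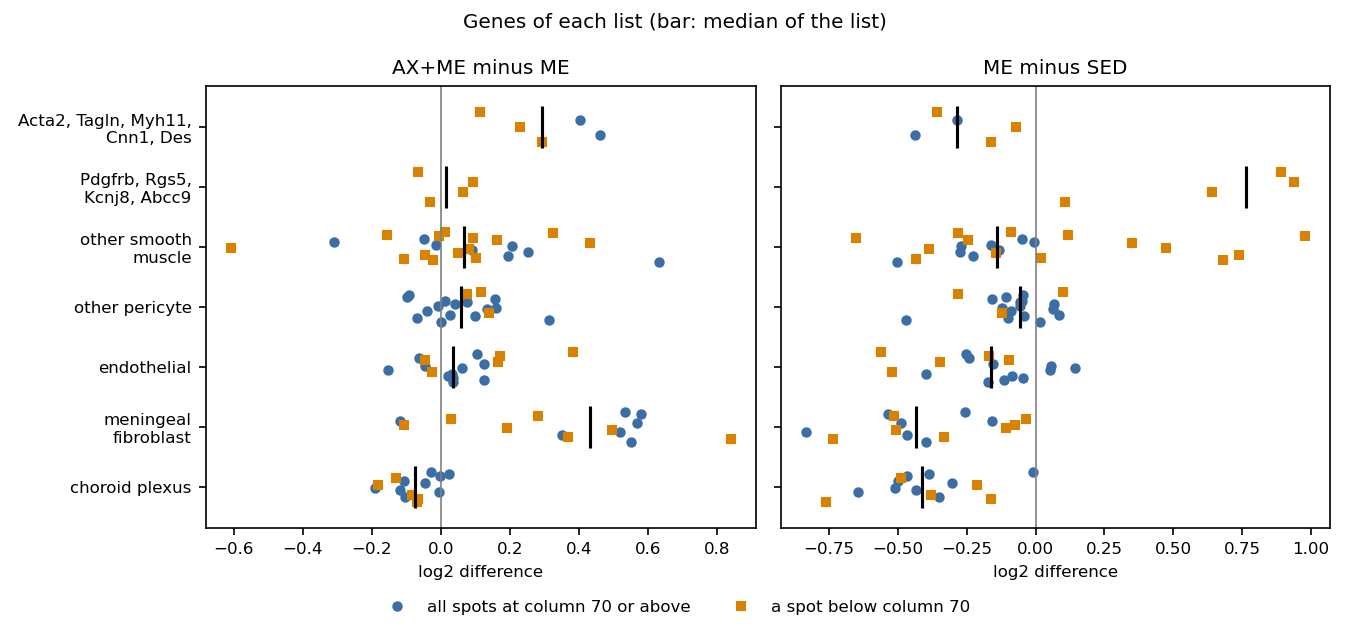
Log2 difference of each measured gene of 7 lists for AX+ME minus ME (left) and ME minus SED (right), with a bar at the list's median. Squares are genes with a spot below array column 70 and circles genes with all spots from column 70 on. The contractile genes and the meningeal fibroblast genes lie to the right of 0 for AX+ME minus ME and to the left for ME minus SED in most cases, and Pdgfrb, Rgs5 and Kcnj8 lie to the right of all other pericyte genes in ME minus SED.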

How the data were processed

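Hippocampal RNA was purified (RNeasy Mini) and dyed with the two-colour Low Input Quick Amp kit, per the labels. The deposited intensity values come from Agilent Feature Extraction 11.0.1.1, as the submitters' processing notes list, and are background-subtracted and spatially detrended, per the file headers. The deposited series-wide intensity values are the same, rounded, each within 0.5. The processed signal of the sample's own dye was averaged over a probe's spots (control and non-uniform spots left out) and scaled to the 75th percentile of all probes of the array, with a floor of 0.001, before log2. A probe was tested if both arrays of 1 or more groups read it well above background; the 37415 such probes entered limma 3.58.1 (R 4.3.3; 3 residual and 1.497 prior degrees of freedom) with group and dye as terms over all 8 samples. P-values are two-sided, Benjamini-Hochberg adjusted over all probes, threshold 0.05. The dye is the replicate number, so the dye term is the block. Slide column is group and slide row is dye: position and group cannot be told apart. The fits were tested on simulated data. Symbols came from accessions through the RefSeq gene table: 26592 probes had one and 29089 none. A spot counted as dim among neighbours within 12 rows and 6 columns with a mean signal of at least 50. Precision is limited by having 2 arrays in each group. The planned normexp correction (offset 50) on mean signals used median signals, which the files hold. Lists use the brightest probe per gene. Named beside the 9 genes are the 2 largest and 2 smallest differences of the smooth muscle, pericyte and PDGF lists, called list genes, and the 5 genes most correlated with Acta2 and Pdgfrb; 1 gene that this rule names is not reported here. The 9 genes, the lists and the column 70 boundary were chosen with earlier results of these data known. Alternatives were scaling, background, filters, columns, probes per gene, dye term, samples in the fit, variance prior, value table and each sample left out.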

Additional observations from a re-analysis of the deposited data

Results flagged for a closer look

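For 6 genes the difference of one pair of groups had one sign in both dyes, and that of the matching pair the opposite sign. This rule takes the sign alone, whatever the size, and AX+ME minus AX was very small for Acta2 and Rgs5. The difference between the 2 effects was tested as the interaction (AX+ME minus AX minus ME plus SED, log2 scale). None passed. Pdgfrb came closest: AX+ME minus AX was -0.10 and -0.03 in the 2 dyes and ME minus SED 0.97 and 0.90, for an interaction of -1.002 (adjusted p = 0.0521). For Cnn1, AX+ME minus AX was 0.10 and 0.06 and ME minus SED -0.40 and -0.48, for an interaction of 0.52 (adjusted p = 0.127); seen the other way, AX+ME minus ME was 0.42 and 0.50 and AX minus SED -0.07 and -0.04. For Tagln, AX+ME minus AX was 0.04 and 0.02 and ME minus SED -0.43 and -0.29, and AX+ME minus ME was 0.18 and 0.05 and AX minus SED -0.28 and -0.27, for an interaction of 0.39 (adjusted p = 0.235). For Acta2, AX+ME minus AX was 0.00 and 0.01 and ME minus SED -0.10 and -0.22, for an interaction of 0.17 (adjusted p = 0.509). For Rgs5 the interaction was -0.91 (adjusted p = 0.619), with AX+ME minus AX of -0.02 in both dyes against ME minus SED of 0.10 and 1.68, and AX+ME minus ME of -0.10 and -0.03 against AX minus SED of 0.02 and 1.67. For Kcnj8 it was -0.80 (adjusted p = 0.480), with AX+ME minus AX of -0.12 and -0.18 against ME minus SED of 0.21 and 1.07. The interaction of Pdgfrb, Rgs5, Kcnj8 and Tagln takes in SED values from the partly dim columns, whose part was not tested.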

How the results depend on the processing

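Over 1755 values of the 9 genes under other settings, no called difference changed direction; 71 values, all of differences not called, had the opposite sign. Of the 1755, 1594 kept direction and side of the threshold or moved within the spread, 53 lost and 22 gained a call, and 86 uncalled values moved. The number of the 9 genes called changed as follows. Interaction (0 as reported): 1 (Pdgfrb) under quantile normalization, normexp, detection on all arrays, the brightest probe per gene, and the trend and robust prior. Median scaling gave 2 for AX+ME minus SED, 1 for ME minus SED, and 0 for the exercise and astaxanthin averages; it moved the share of higher calls among all probes to 28.0% for AX+ME minus SED, against 58.3%, and to 50.4% for AX minus SED, against 70.9%. No filter gave 1, 0 and 0 for ME minus SED and the exercise and astaxanthin averages. The fit without the dye term, which is the replicate block, gave the same 1, 0 and 0 and changed no other count. The trend and robust prior gave 2 for AX minus SED and 3 for ME minus SED (Tagln added to each), and 0 genes passed for the exercise average with the series-wide values. With only the 2 groups compared, each comparison with SED gave 0. Refits from column 70 on covered 2 genes, or 4 genes when only such spots were averaged (chosen after seeing the data). They gave 0 for the comparisons with SED and both averages. Pdgfrb is not in them. Cnn1 in ME minus SED stayed at -0.44 in both refits, with limma adjusted p = 0.119 and 0.117. The refit over 2 genes called 2, 0 and 0 of 21589 probes for AX+ME, AX and ME minus SED. With 1 sample left out, counts ranged from 0 to 3 for AX+ME minus SED, AX minus SED, the interaction and both averages, 0 to 4 for ME minus SED, and 0 to 0 among AX+ME, AX and ME; the highest came without SED replicate 1, where Rgs5 and Kcnj8 were added. A lone sample of a group was then assumed to vary like the others. Over its settings the adjusted p of Cnn1 in ME minus SED was 0.0208 to 0.434, and of Pdgfrb in AX+ME minus SED 0.00235 to 0.340. With both SED samples left out (chosen after seeing the data), 0 genes were called among the other 3 groups (AX+ME minus ME: Cnn1 adjusted p = 0.336, Acta2 0.338).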

Other observations

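Outside the vessel wall lists, the genes of the other lists that passed the test were mostly of the choroid plexus. In AX+ME against SED all 14 choroid plexus genes were lower and 8 of them were called, where 1.93% of all probes were called lower. Among the 8 were Kcne2 (-0.70, adjusted p = 0.0189), F5 (-0.65, adjusted p = 0.0187), Otx2 (-0.61, adjusted p = 0.0229) and Aqp1, a water channel (-0.83, adjusted p = 0.0224). The other 4 called were Folr1 (-0.55), Slc4a5 (-0.47), Clic6 (-0.46) and Kl (-0.35). Kcne2, F5, Otx2 and Aqp1 were also lower for exercise averaged over diets (-0.49, -0.57, -0.45 and -0.63). Flt1, a VEGF receptor of endothelial cells, fell in AX+ME against SED (-0.55, adjusted p = 0.0471, column 66), and Col3a1 fell in AX against SED (-0.58, adjusted p = 0.0416). The astrocyte glutamate transporter Slc1a3 was called higher against SED by 1.01 in AX+ME, 1.03 in AX and 1.104 in ME, at column 57, one of the partly dim columns of the SED arrays. Zbtb20, of the neuron list, fell in AX+ME (-0.43) and in ME (-0.51) against SED, at column 1. Of the red cell genes, Alas2 fell (-0.49, adjusted p = 0.0440) and Slc4a1 rose (0.76, adjusted p = 0.0362) in AX+ME against SED. All these comparisons share the SED samples.

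On each array the channel that held no sample was scanned as well. Of the 27 spots of the 9 genes, 0 were well above background in that channel on any of the 8 arrays, with signals between -6.58 and 9.52.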
